A study of Mus musculus with 6 samples.

Results

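Genes of cholesterol synthesis, of its control by the SREBP transcription factors and of the response to the sterol receptors LXRα and LXRβ were followed in type 2 conventional dendritic cells (cDC2s) of mouse spleen, with and without the transcription factor IRF4. The group holds 35 genes chosen by symbol, each with at least 10 counts summed over the libraries, out of 14535 gene rows in the deposited count table. All 35 met that minimum and all 35 passed the expression filter, Idi1 being the member with the fewest reads (93 over the 6 libraries). Msmo1 stands in the table under its older symbol Sc4mol. The study compared 3 wild-type (WT) libraries with 3 IRF4-deficient libraries. The deficient mice were CD11c-Cre Irf4fl/fl animals, in which Cre recombinase driven by the CD11c (Itgax) promoter deletes the floxed part of Irf4 in CD11c-expressing cells, and both groups were of the C57BL/6 strain. The IRF4-deficient libraries are called mutant below. The labels give no age, no sort gate and no group with Cre alone, so effects of Cre, of the floxed allele and of Irf4 loss cannot be told apart. Nor do they tell if each library stems from its own mouse, so p-values cover only the spread among libraries, which may be technical.

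Animal cells make cholesterol from acetyl-CoA through mevalonate, squalene and lanosterol. When sterol in the endoplasmic reticulum runs low, SCAP escorts SREBP precursors to the Golgi for cleavage, and the released factors switch on the synthesis enzymes, while INSIG proteins hold the complex back when sterol is plentiful. Surplus cholesterol is stored as ester or leaves the cell, and its oxidised derivatives activate LXRs, which induce the transporters ABCA1 and ABCG1.

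Total counts lay between 7421605 and 11459920 per library, and 11934 genes were tested. Levels are given as CPM, read counts put on one scale by TMM factors, which correct library size for composition, and as mean ± SD with n = 3 per group. Irf4 was at 90.8, 65.3 and 84.0 CPM in mutant replicates 1 to 3 and at 292, 296 and 345 CPM in the WT replicates, so each library matched its label. The summed level of 11 cDC2 identity genes was 30420 to 31680 CPM in mutant and 32780 to 36650 CPM in WT libraries, and none of the 11 was at 0. Of the 11, 2 were called higher and 6 lower, beside 9.87% and 10.5% of all tested genes. Most of that sum is Cd74, H2-Aa and H2-Ab1, of antigen presentation. Within the list Cd4 was 4.23-fold, Zbtb46 1.92-fold and Flt3 1.65-fold lower in mutant cells, and Itgam was 3.03-fold higher, while Sirpa and Clec4a4 were not called. Counts of reads cannot tell fewer cells of a type from less RNA per cell in such bulk samples.

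Most of the sterol genes did not differ detectably between the genotypes. Of the 35 members, 3 were called higher in mutant cells (Nr1h3, Abca1 and Npc2) and 5 lower (Srebf2, Soat1, Scd2, Mylip and Lss) by edgeR's quasi-likelihood test at a Benjamini-Hochberg adjusted p under 0.05. That is 22.9% of the members, near the 20.4% called among all tested genes (9.87% higher and 10.5% lower). An unadjusted edgeR p under 0.05 was found for 10 members, where 31.7% of all tested genes had one. The groups did not overlap for 12 of the 35 members, against 35.6% of all tested genes. The median log2 fold change was 0.16 over the members and 0.0025 over all tested genes. Among the called members the changes ran from 1.27-fold (Npc2) to 2.40-fold (Nr1h3), and Srebf2, Soat1, Nr1h3 and Abca1 stayed called whichever of the 6 libraries was dropped.

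**Figure D1:**
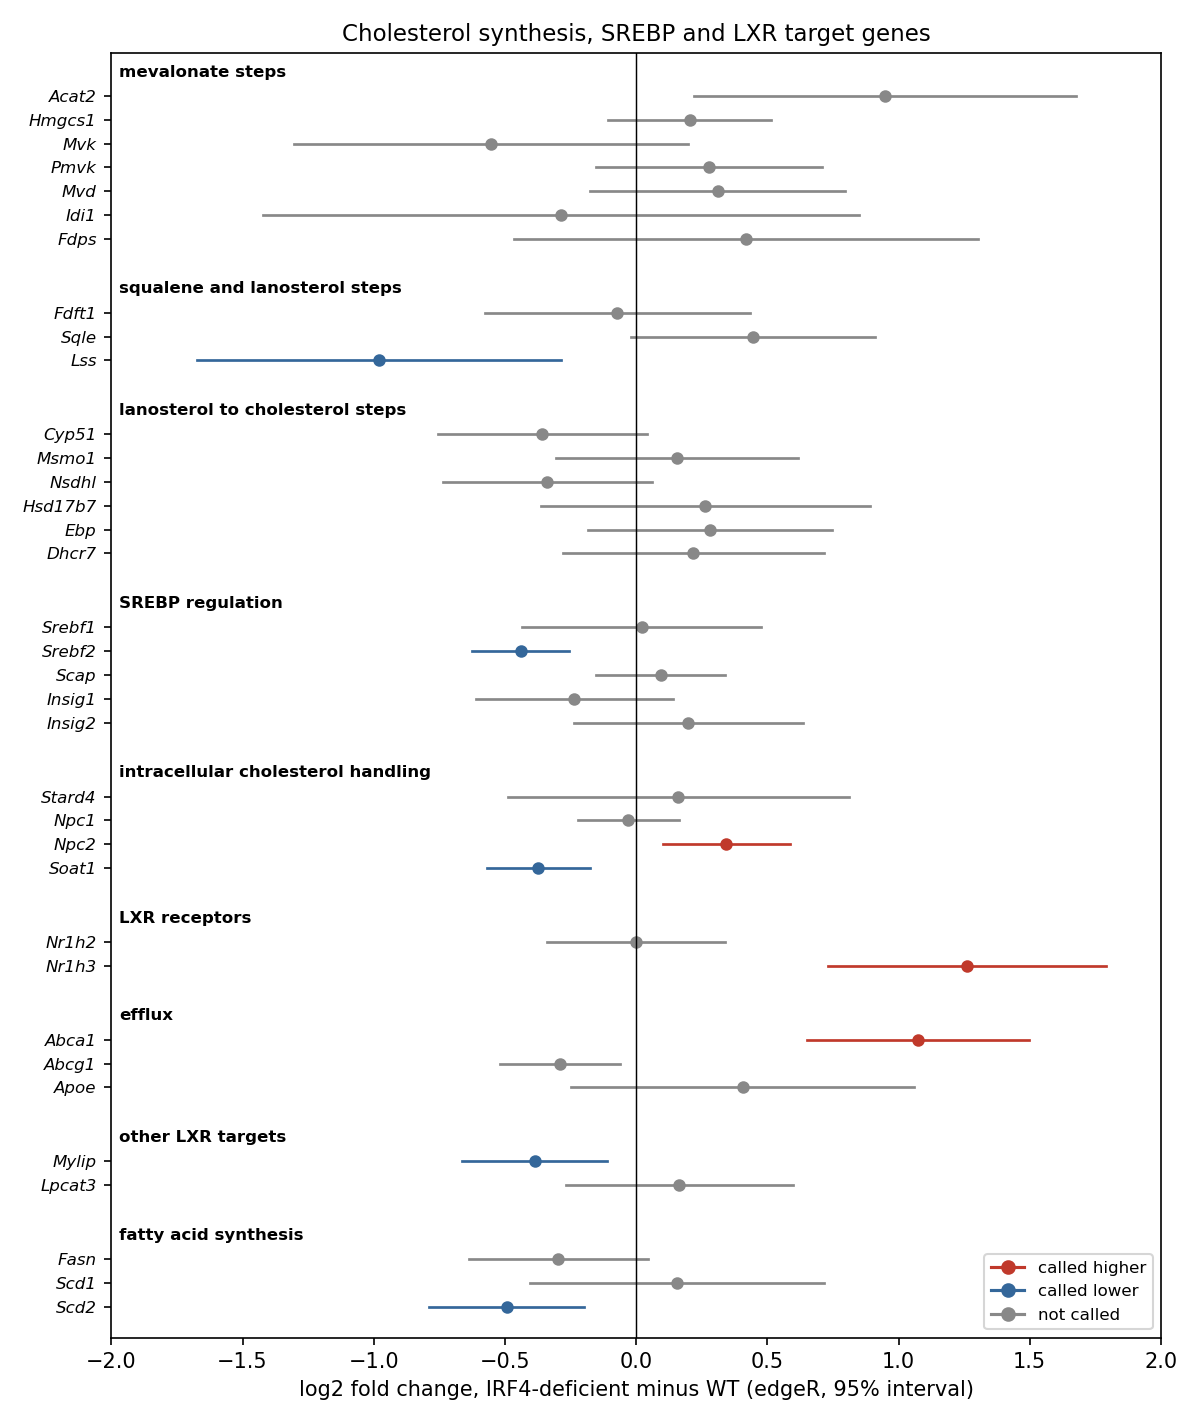
Log2 fold change of the 35 members, mutant (labelled IRF4-deficient) minus WT, with 95% intervals from the edgeR fit, in blocks by role. Points in red were called higher, blue lower and grey neither. Nr1h3 (1.26) and Abca1 (1.07) lie farthest to the right, and 15 of the 16 synthesis enzymes in the upper 3 blocks are grey.

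Enzymes of cholesterol synthesis stayed mostly uncalled. Of the 16 members that make cholesterol, 1 was called lower (Lss) and 0 higher, while 2 had an unadjusted edgeR p under 0.05 (Lss and Acat2). Thus 6.25% were called, where 20.4% of all tested genes were called and 31.7% had an unadjusted edgeR p under 0.05. DESeq2 called the same counts, 1 lower and 0 higher, and limma-voom called 0 in either direction. The log2 fold change was positive for 10 and negative for 6 of them, with a median of 0.21. For 11 of the 16 the whole 95% interval of the log2 fold change lay between -1 and 1, so a change of 2-fold or more was outside the interval, while for the other 5 the interval reached past one of these bounds. An interval within these bounds was also found for 8153 of the 11934 tested genes, a similar share.

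The mevalonate branch turns acetyl-CoA into the isoprenoid farnesyl pyrophosphate, and none of its 7 members was called. Hmgcs1, the HMG-CoA synthase, was at 54.4, 44.99 and 48.4 CPM in mutant replicates 1 to 3 and at 35.5, 42.3 and 50.7 CPM in WT replicates 1 to 3. WT replicate 3 lay within the range of the deficient libraries, and the log2 fold change was 0.20 (95% interval -0.11 to 0.51; edgeR adjusted p = 0.381). Acat2, the cytosolic thiolase that joins acetyl-CoA units at the entry to the pathway, stood at 8.74, 5.19 and 7.79 CPM against 3.32, 3.36 and 4.64 CPM. Its groups did not overlap, but with 24 to 95 reads per library the log2 fold change of 0.95 (SE 0.35) had an edgeR adjusted p of 0.0615. It was called higher without mutant replicate 2 (edgeR adjusted p = 0.0351) and with a filter of 5 CPM in 3 libraries (0.0487).

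Mvk, mevalonate kinase, was the other mevalonate gene whose groups did not overlap, at 3.34 to 4.42 CPM in mutant and 5.05 to 6.92 CPM in WT libraries (log2 fold change -0.55, edgeR adjusted p = 0.318). Pmvk and Mvd, the kinase and decarboxylase of the next steps, had log2 fold changes of 0.28 and 0.31. Idi1, an isomerase, and Fdps, the farnesyl pyrophosphate synthase, were read too thinly for a narrow estimate, with 95% intervals of -1.42 to 0.85 and -0.47 to 1.304. Exons of Fdps share 26.7% of their bases with a read-through gene on the same strand in GENCODE M21, so its counts are uncertain.

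Squalene is an open-chain intermediate, and the enzyme that folds its oxidised form into the rings of lanosterol is encoded by Lss (GRCm38 chr10:76531588-76557138, plus strand). Lss was at 5.80, 7.42 and 3.897 CPM in mutant replicates 1 to 3 and at 10.9, 7.09 and 15.98 CPM in the WT replicates. WT replicate 2 lay below mutant replicate 2, so the groups overlapped. Lss fell 1.97-fold (log2 fold change -0.98, SE 0.33; edgeR adjusted p = 0.0423). This call was close to the threshold. It was lost without mutant replicate 1 or 3 and without WT replicate 1 or 3 (edgeR adjusted p 0.0842, 0.127, 0.0828 and 0.273), and with limma-voom (0.0886). The log2 fold change stayed at -0.99 without mutant replicate 1 and -1.003 without WT replicate 1. It was -0.77 without mutant replicate 3 and -0.65 without WT replicate 3.

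Sqle, squalene epoxidase, is the enzyme that oxidises squalene before ring closure. It was at 16.5, 18.7 and 25.6 CPM in mutant libraries and 14.2, 12.4 and 18.2 CPM in WT libraries, which overlap, with a log2 fold change of 0.44 (95% interval -0.02 to 0.91; edgeR adjusted p = 0.179). Thus Sqle and Lss, which catalyse neighbouring steps, had estimates of opposite sign, and the difference between them was not tested. Fdft1, squalene synthase, differed little in its means (13.1 ± 2.21 and 13.9 ± 3.56 CPM), but 18.3% of its exon bases lie opposite exons of the cathepsin gene Ctsb, and without a known strand setting reads of the 2 genes cannot be told apart.

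Of the 6 members that trim lanosterol to cholesterol none was called, and each had its whole 95% interval between -1 and 1. Cyp51, the lanosterol demethylase, was at 45.4, 34.7 and 41.1 CPM in mutant replicates 1 to 3. In the WT libraries it was at 39.8, 45.1 and 70.9 CPM, WT replicate 3 standing above the other five. Its log2 fold change was -0.36 (SE 0.19; edgeR adjusted p = 0.211), and -0.07 without WT replicate 3. Nsdhl, a sterol dehydrogenase, was lower in every mutant library (15.03 to 21.8 CPM) than in any WT library (22.3 to 25.7 CPM) without passing the test (edgeR adjusted p = 0.242). Ebp, the sterol isomerase, had groups that did not overlap in the other direction (12.7 to 14.8 against 10.4 to 11.5 CPM; edgeR adjusted p = 0.423). Msmo1, Hsd17b7 and Dhcr7, an oxidase and 2 reductases of the same branch, had log2 fold changes of 0.16, 0.26 and 0.22.

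WT replicate 3 stood high among the WT libraries for most synthesis genes. It was the highest of the 3 WT libraries for 14 of the 16 synthesis genes (all but Mvk and Dhcr7), where it was the highest for 34.6% of all tested genes and for 8 of the 19 other members. The summed level of the 16 genes was 297 CPM there, while WT replicates 1 and 2 had 223 and 222 CPM and the mutant libraries 242 to 266 CPM. Without that library 0 synthesis genes were called in either direction by edgeR, Lss being the only one called with all libraries. The same held without WT replicate 1 and without mutant replicate 1 or 3. The high placing of WT replicate 3 was noticed in the values and is given as a description.

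**Figure D2:**
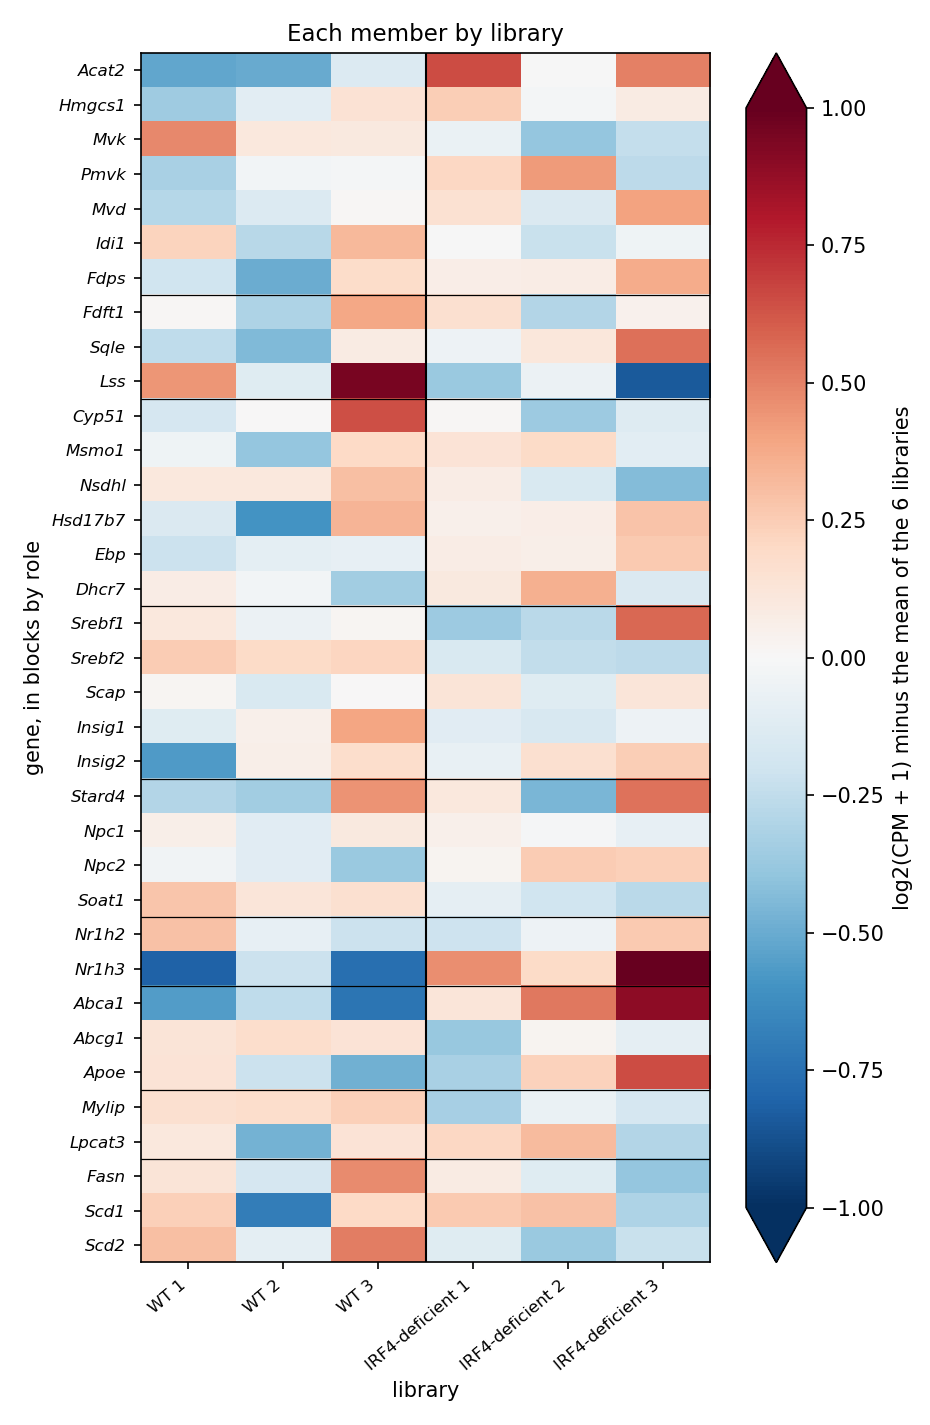
Log2(CPM + 1) of each member in each library, minus the gene's mean over the 6 libraries, with genes in blocks by role and a vertical line between WT and mutant libraries. In the upper 3 blocks WT replicate 3 carries the highest WT value for 14 of 16 genes, while Nr1h3 and Abca1 are above their mean in each mutant library.

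Promoter sequences were available from RefSeq (GRCm38.p6, 250 bases before to 50 after each start) for 27 members with 38 start sites. The SREBP element TCACNCCAC, searched on both strands, occurred in 1 of them (Hmgcs1) and in 1.24% of all 32851 windows. The CCAAT box (CCAAT), bound by the SREBP partner NF-Y, occurred in windows of 12 of the 13 synthesis genes with a sequence, all but Acat2, and in those of 41.1% of all genes. The GC box GGGCGG occurred in 12 of the 13, all but Pmvk, and in 38.2% of all genes. These are matches of letters and not measured binding. The Hmgcs1 stretch is shown because it holds the single SREBP element found. It lies upstream of the annotated gene at chr13:119690178-119690257 (plus strand), at positions -173 to -94 from the start, with the element in capitals, 5′ to 3′.
Hmgcs1: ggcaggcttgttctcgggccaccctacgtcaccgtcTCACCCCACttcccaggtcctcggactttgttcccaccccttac

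Motifs of IRF4 itself were searched in the same windows. The ETS-IRF composite element (GGAA, any 2 bases, then GAAA) is where IRF4 binds together with PU.1. It occurred in 3 of the 38 member windows, those of Pmvk (both of its starts) and Lpcat3, and in 2.72% of all windows. The interferon-response type (GAAA, any 2 bases, then GAAA), searched likewise on both strands, occurred in 1 of the 38, that of Ebp, and in 3.44% of all windows. Whether these shares differ was not tested. Since these motifs differ at the second letter, no stretch matches both on the same strand. The 3 stretches are shown because IRF4 is the deleted factor, each upstream of the annotated gene on the gene's own strand with the motif in capitals, which for Pmvk and Lpcat3 is read from the opposite strand. Their positions are chr3:89454330-89454409 (plus) for the upstream start of Pmvk, chr6:124662923-124663002 (plus) for Lpcat3 and chrX:8193683-8193762 (minus) for Ebp.
Pmvk: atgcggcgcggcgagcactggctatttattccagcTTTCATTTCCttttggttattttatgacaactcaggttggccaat
Lpcat3: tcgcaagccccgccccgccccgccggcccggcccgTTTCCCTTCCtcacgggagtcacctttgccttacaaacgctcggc
Ebp: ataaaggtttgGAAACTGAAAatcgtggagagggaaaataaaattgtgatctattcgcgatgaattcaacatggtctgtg
None of these 3 genes was called, with edgeR adjusted p of 0.393 for Pmvk, 0.641 for Lpcat3 and 0.423 for Ebp. The search says nothing about sites outside these windows.

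In the SREBP control machinery the gene of the main sterol regulator was lower in mutant cells. Srebf2 encodes SREBP2, the factor that drives the cholesterol enzymes (chr15:82147181-82205379, plus strand). It was at 163, 153 and 151 CPM in mutant replicates 1 to 3 and at 216, 208 and 211 CPM in WT replicates 1 to 3, with tight groups that did not overlap. Its mean of 156 ± 6.47 CPM against 212 ± 4.22 CPM is a fall of 1.36-fold (log2 fold change -0.44, SE 0.09; edgeR adjusted p = 0.00117). Leaving out each library gave -0.47 to -0.42, with adjusted p up to 0.00785. Per kilobase of exon Srebf2 was the second most abundant member, at 25.6 CPM per kilobase over the 6 libraries, after Apoe at 54.2.

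Srebf1 encodes SREBP1, the form tied more to fatty acid synthesis, and was not called. Its level was 24.1, 25.8 and 47.1 CPM in mutant replicates 1 to 3 against 30.1 to 33.7 CPM in WT, replicate 3 of the deficient group standing above all others. The log2 fold change was 0.02 (95% interval -0.44 to 0.48) and -0.35 without that library, where it was not called either (edgeR adjusted p = 0.151). Scap, the escort of SREBP, had a narrow interval around its log2 fold change of 0.09 (-0.15 to 0.34). Insig1 and Insig2, the retention proteins, had log2 fold changes of -0.24 and 0.20, both uncalled. Insig1, itself a classical SREBP target, was at 21.6 to 23.5 CPM in mutant and 22.3 to 32.2 CPM in WT libraries.

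Genes that move or store cholesterol inside the cell changed in both directions. Soat1 encodes the enzyme that esterifies cholesterol for storage (chr1:156424525-156474331, minus strand). It was at 168, 155 and 147 CPM in mutant replicates 1 to 3 and at 216, 193 and 199 CPM in the WT replicates. No deficient library reached a WT value, and the gene fell 1.29-fold (log2 fold change -0.37, SE 0.09; edgeR adjusted p = 0.00688), a call kept in the 6 fits without 1 library (adjusted p up to 0.0375).

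Npc2, the soluble lysosomal protein that picks up cholesterol from degraded lipoproteins, went the other way. It was at 102, 120.2 and 119 CPM in mutant replicates 1 to 3 against 98.3, 93.2 and 77.6 CPM in WT, without overlap, and rose 1.27-fold (log2 fold change 0.34, SE 0.12; edgeR adjusted p = 0.0421). The call was lost without mutant replicate 2 or 3 and without WT replicate 2 or 3 (edgeR adjusted p 0.126, 0.0881, 0.0873 and 0.209), and with limma-voom (adjusted p = 0.0510). Npc1, the membrane protein to which NPC2 hands its cholesterol, was among the most evenly expressed members, at 198 ± 9.23 CPM in mutant and 202 ± 15.2 CPM in WT cells, with a log2 fold change of -0.03 (95% interval -0.22 to 0.16). Stard4, a carrier of sterol between membranes, varied from 6.92 to 14.8 CPM within the deficient group and was not called.

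The gene of LXRα and the efflux transporter gene Abca1 had the largest increases among the members. Nr1h3, which encodes LXRα (chr2:91184061-91202834, minus strand), was at 25.5, 20.9 and 40.5 CPM in mutant replicates 1 to 3 and at 9.96, 15.5 and 10.4 CPM in WT replicates 1 to 3. Every deficient library lay above every WT library, and replicate 3 was the highest. The rise was 2.40-fold (log2 fold change 1.26, SE 0.25; edgeR adjusted p = 0.00138). Nr1h2, which encodes LXRβ, was at 44.0 ± 7.62 and 44.0 ± 8.47 CPM, with an interval of the log2 fold change from -0.34 to 0.34.

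Abca1, the transporter that loads cellular cholesterol onto apolipoproteins (chr4:53030787-53159895, minus strand), was at 29.6, 39.5 and 51.2 CPM in mutant replicates 1 to 3. In WT it was at 18.1, 22.6 and 15.98 CPM, below all deficient libraries. Means of 18.9 ± 3.40 and 40.1 ± 10.8 CPM give a rise of 2.10-fold (log2 fold change 1.07, SE 0.20; edgeR adjusted p = 0.000732).

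The other 2 efflux genes were not called. Abcg1, the transporter that passes cholesterol to lipoprotein particles, had a negative estimate. It was at 97.8, 130.3 and 120.4 CPM in mutant replicates and at 140.1, 144.6 and 140.6 CPM in WT replicates. The groups did not overlap, and the log2 fold change was -0.29 (SE 0.11; edgeR adjusted p = 0.0703), with a call without mutant replicate 2 (0.0399). Apoe, the apolipoprotein that accepts cholesterol, ranged from 89.1 CPM in mutant replicate 1 to 131 and 176 CPM in replicates 2 and 3, against 123, 96.0 and 79.9 CPM in WT. Its groups overlapped, and the log2 fold change of 0.41 (95% interval -0.25 to 1.06) was not called (edgeR adjusted p = 0.379) except without mutant replicate 1 (log2 fold change 0.63, adjusted p = 0.0206).

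**Figure D3:**
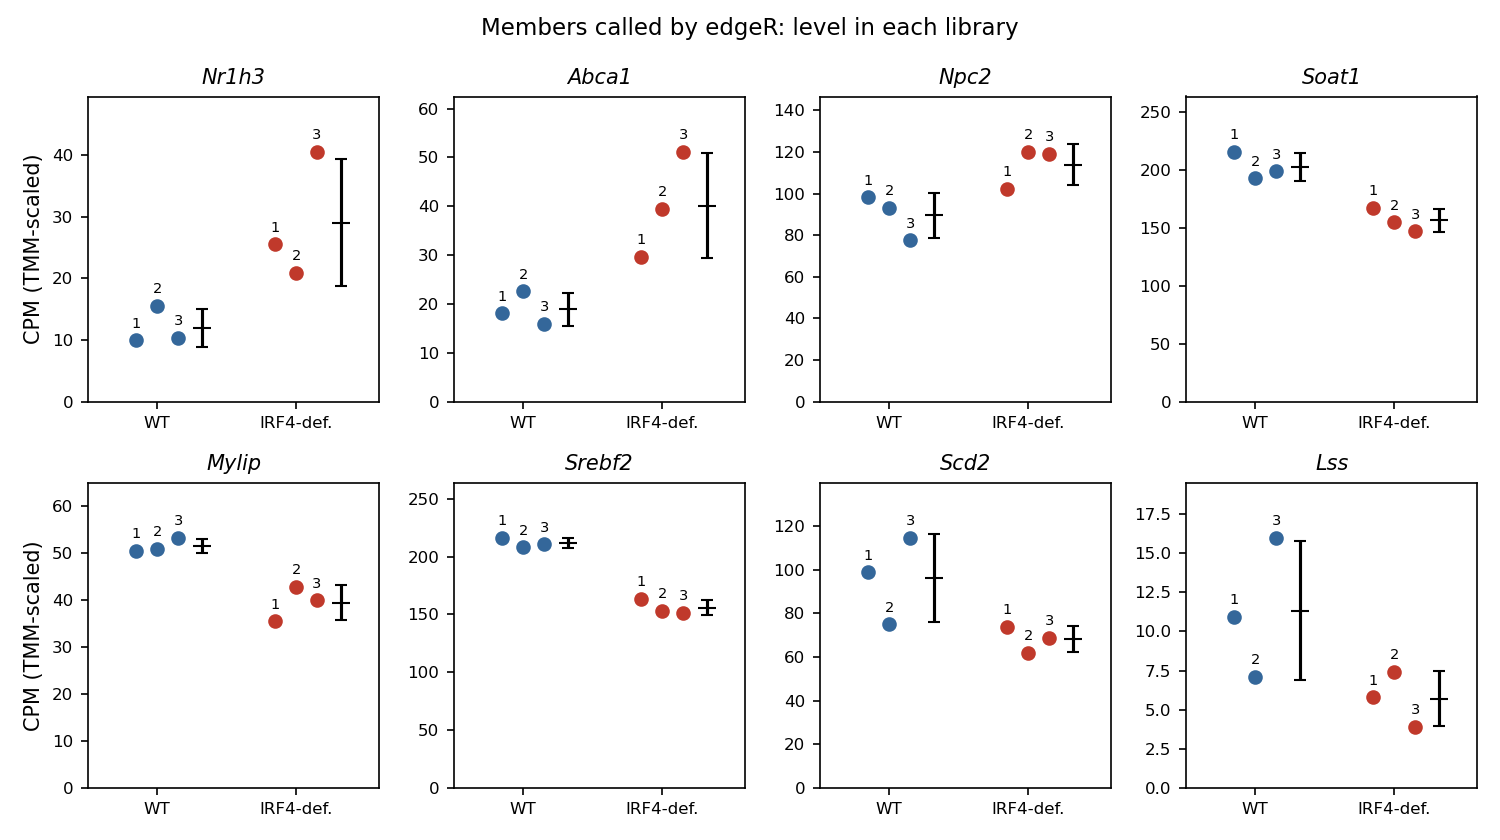
TMM-scaled CPM of the 8 called members in each library, with replicate numbers above the points and mean ± SD (n = 3) as bars to the right of each group. Values do not overlap between the genotypes for 7 of the 8 genes, beside 35.6% of all tested genes. Since the 8 were picked as called in these libraries, little overlap is built in. Lss is the exception.

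The LXR element was searched on both strands as NGGTNA, any 4 bases, then NGGTNA, a direct repeat of the receptor's half-site. The 3 windows that held it belonged to Abca1, Fasn and the downstream start of Srebf1, out of 27 members with sequence, where 0.718% of all windows held it. The stretches are shown to set the shared element beside the differing values. They lie at chr4:53159915-53159994 for Abca1 and chr11:120824718-120824797 for Fasn, both upstream of the annotated gene, and at chr11:60210606-60210685 for Srebf1, in an intron of its longer transcript. All are on the minus strand and given 5′ to 3′ on the gene's own strand, with the element in capitals, read from the opposite strand.
Abca1: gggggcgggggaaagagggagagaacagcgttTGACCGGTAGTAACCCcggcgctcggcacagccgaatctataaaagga
Fasn: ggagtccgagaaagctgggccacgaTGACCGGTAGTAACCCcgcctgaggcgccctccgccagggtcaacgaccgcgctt
Srebf1: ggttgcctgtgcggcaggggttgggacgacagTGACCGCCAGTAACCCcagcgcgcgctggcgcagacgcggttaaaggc
The 16 bases are the same in Abca1 and Fasn. Of these genes Abca1 rose, while Fasn (log2 fold change -0.30, edgeR adjusted p = 0.225) and Srebf1 (0.02, adjusted p = 0.963) were not called, and whether they differ from Abca1 was not tested.

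The members that are other LXR targets, Mylip and Lpcat3, were not called higher. Mylip, also called Idol, encodes a ubiquitin ligase that sends lipoprotein receptors to degradation (chr13:45389742-45412022, plus strand). It was at 35.5, 42.9 and 39.97 CPM in mutant replicates 1 to 3 against 50.5, 50.9 and 53.3 CPM in WT, without overlap. Mylip fell 1.31-fold (log2 fold change -0.39, SE 0.13; edgeR adjusted p = 0.0453), close to the threshold, and was uncalled in all 6 fits without 1 library (adjusted p 0.0503 to 0.164), with DESeq2 (0.0522) and with no filter (0.0544). Lpcat3, which loads polyunsaturated chains into phospholipids, was at 20.5 to 31.9 CPM in mutant and 18.0 to 28.0 CPM in WT libraries and was not called. Exons of Emg1 lie opposite 10.2% of its exon bases, so its counts are uncertain without a known strand setting, as are those of Scap (13.2% shared with an opposite gene model) and Hmgcs1 (12.1%).

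In fatty acid synthesis Scd2, a stearoyl-CoA desaturase that introduces a double bond, was the member called. It was at 73.8, 61.9 and 68.8 CPM in mutant replicates and at 99.0, 75.1 and 115 CPM in WT replicates, WT replicate 2 lying closest to the deficient group. Scd2 fell 1.41-fold (log2 fold change -0.49, SE 0.14; edgeR adjusted p = 0.0174) and was no longer called without mutant replicate 2 or WT replicate 1 or 3 (adjusted p 0.0813, 0.0559 and 0.127). Fasn, the fatty acid synthase, was at 46.8 to 65.2 and 54.5 to 85.8 CPM. Scd1, a close relative of Scd2, was at 11.9 to 18.5 and 8.91 to 17.8 CPM. Scd1 and Scd2 are similar in sequence, and their counts are uncertain where reads could be shared.

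Set side by side, synthesis and efflux did not separate the genotypes. The mean log2(CPM + 1) of the 16 synthesis genes was 3.73, 3.62 and 3.66 in the mutant libraries, numbered 1 to 3, against 3.57, 3.43 and 3.83 in WT. For Abca1, Abcg1 and Apoe it was 6.02, 6.47 and 6.70 against 6.12, 6.12 and 5.86. Synthesis minus efflux was -2.73 ± 0.39 in mutant and -2.42 ± 0.35 in WT libraries (SD, n = 3 each), so the difference of -0.31 was smaller than the spread within either group. WT replicate 3 and mutant replicate 1 had the 2 highest values of this index, -2.02 and -2.29. Leaving Apoe out of the efflux genes gave the same -0.31. Without WT replicate 3 the difference was -0.11, and without mutant replicate 1 it was -0.53.

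Markers of red pulp macrophages were higher in mutant libraries, as were Nr1h3 and Abca1. All 14 such markers in the list were tested, 8 were called higher and 0 lower in mutant cells, and their summed level was 2157, 2937 and 3792 CPM in mutant replicates 1 to 3 and 1625, 1755 and 1383 CPM in the WT replicates. Among all tested genes 9.87% were called higher and 10.5% lower. None of the 14 was at 0 in the table. In the deficient group replicate 3 was the highest and replicate 1 the lowest in this sum, as for Abca1 and Apoe, whereas Nr1h3 was lowest in replicate 2. The order is not particular to these markers. Summed monocyte genes, given below, had it too, at 2942, 3308 and 3508 CPM in mutant replicates 1 to 3. With the mean log2 CPM of the 14 markers as a covariate, the log2 fold change of Abca1 was 0.26 (edgeR adjusted p = 0.716), that of Nr1h3 0.67 (0.384) and that of Apoe -0.62 (0.0811). Srebf2 was then at -0.34 (0.260) and Soat1 at -0.23 (0.531). Not every estimate shrank. Those of Abcg1 (-0.60, edgeR adjusted p = 0.0618), Mylip (-0.54, 0.242) and Acat2 (1.34, 0.220) were larger in size than without the covariate. No member was called in that fit, which called 848 genes of the whole table in place of 2429. The marker level itself differed between the genotypes without overlap, so the covariate removes part of the contrast, and the part of macrophage RNA in the Nr1h3 and Abca1 results was not tested.

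**Figure D4:**
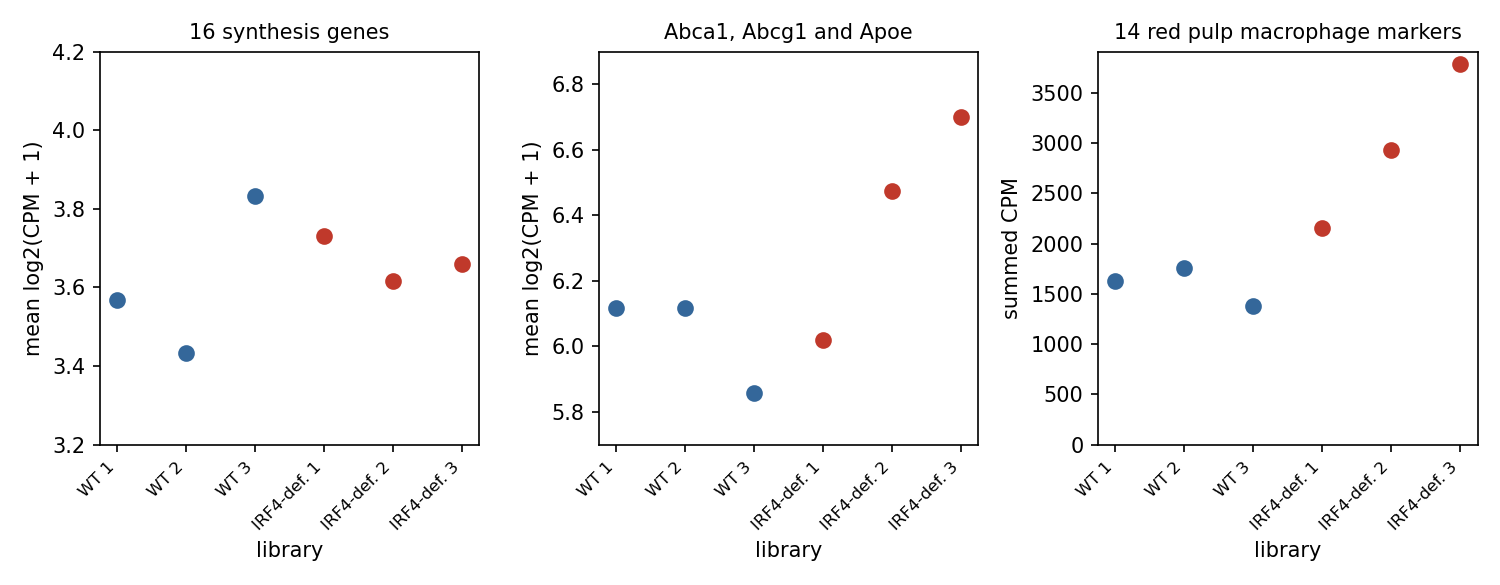
Mean log2(CPM + 1) of the 16 synthesis genes (left) and of Abca1, Abcg1 and Apoe (middle), and summed CPM of 14 red pulp macrophage markers (right), with 1 point per library, WT in blue and mutant in red. The left and middle axes do not start at 0. WT replicate 3 is highest on the left (3.83), and mutant replicate 3 is highest in the middle (6.70) and on the right (3792 CPM).

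Monocyte genes were also higher, with 6 of 10 tested called higher and 0 lower and sums of 2942 to 3508 against 1140 to 1537 CPM. Of 9 cDC1 markers 6 were called higher and 1 lower (365 to 496 against 280 to 297 CPM). Proliferation genes, whose products are needed in cells that also build membrane, had 9 of 14 called higher and 0 lower (1957 to 2527 against 1429 to 1537 CPM). The synthesis enzymes were mostly uncalled. The shares over all tested genes were 9.87% higher and 10.5% lower. Markers of plasmacytoid dendritic, B and plasma cells summed to at most 251, 132 and 174 CPM in any library, and their ranges overlapped between the genotypes. In the same order, 1 of 5, 1 of 6 and 0 of 4 tested were called higher, and 1 in each list lower. T cell, NK cell, neutrophil and erythroid markers summed to at most 40.1 CPM in each library. Some T cell, neutrophil and erythroid markers had no row, so these sums leave them out. Erythroid sums were 5.06 to 17.67 CPM in mutant and 17.73 to 23.93 CPM in WT libraries, without overlap, and 0 of the 3 tested were called. Sums of the T cell, NK cell and neutrophil markers overlapped. The part of any of these cells in the results was not tested.

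Other genes of the pathway, from 5 wider lists, gave 14 called higher and 7 lower of 74 tested, which is 28.4% beside the 20.4% of all tested genes. These lists were chosen with earlier results of these data known, so their shares are descriptions. In further sterol and isoprenoid synthesis 0 of 11 were called by edgeR, 3 having an unadjusted p under 0.05. Fatty acid and lipid synthesis had 1 of 13 higher (Lpin1, a phosphatidate phosphatase, 1.43-fold) and 1 lower (its relative Lpin2, 166 against 216 CPM). Among SREBP processing genes 0 of 12 were higher and 3 lower, Fbxw7, Paqr3 and Erlin1. FBXW7 marks nuclear SREBP for degradation, PAQR3 anchors SCAP in the Golgi and ERLIN1 restrains SREBP in the endoplasmic reticulum. Paqr3 was at 0.557 to 1.66 CPM in mutant and 2.90 to 5.46 CPM in WT libraries.

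Cholesterol transport had 4 of 21 higher and 2 lower. Lamp1, a lysosomal membrane glycoprotein, rose 1.70-fold, from 301 to 513 CPM, and Scarb1, a lipoprotein receptor, 1.48-fold. Lamp2 and the sterol carrier Osbpl5 were also called higher. The related Osbpl8, a carrier at membrane contact sites, fell from 260.2 to 163 CPM, and Stard5 1.36-fold.

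The LXR and oxysterol list held the most calls, with 9 of 17 tested higher and 1 lower, where 9.87% of all tested genes were higher and 10.5% lower. This list too was chosen with earlier results known, so whether it exceeds that share was not tested. Smpdl3a, a phosphodiesterase that is a known LXR target, was at 109, 149 and 184 CPM in mutant replicates 1 to 3 and at 48.8, 60.7 and 42.3 CPM in WT replicates, and rose 2.89-fold. Rxra, which encodes the partner with which LXRs bind DNA, was at 37.5, 46.5 and 58.2 CPM against 25.4, 21.6 and 20.4 CPM (2.11-fold). For Smpdl3a and Rxra, as for Abca1, mutant replicate 3 was the highest and replicate 1 the lowest of the deficient libraries. Arl4c, another LXR target, rose 1.70-fold with the reverse placing of these libraries (439, 403 and 362 CPM against 231 to 248 CPM).

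The list also holds enzymes of oxysterols, the natural LXR ligands. Cyp27a1, the sterol 27-hydroxylase, fell 1.86-fold, from 200 to 108 CPM (edgeR adjusted p = 4.59e-06), and was the one gene of the list called lower. Cyp7b1, which degrades 25- and 27-hydroxycholesterol, rose from a level of 0.277 to 1.78 CPM in WT to 3.71 to 7.79 CPM (log2 fold change 2.80, SE 0.57; edgeR adjusted p = 0.00127). Hsd3b7, a dehydrogenase of hydroxylated sterols, was not called (log2 fold change 0.26, edgeR adjusted p = 0.400). Gpr183, the receptor by which cDC2s sense oxysterol gradients in the spleen, rose 1.41-fold, from 148 to 209 CPM (edgeR adjusted p = 0.000434).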

How the data were processed

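The authors deposited raw counts per gene symbol, 1 column per library, with no normalization. STAR, HTSeq and DESeq2 are the tools, and mm10 the build, per the submitters' processing notes. No source used here gives versions, annotation, strand setting or the row filter. WT columns were matched through the labels' source names. No column was left unused and no row lacked a name. The labels' sample sheet numbers run separately for each genotype, so their order and genotype cannot be told apart.

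Counts were filtered with filterByExpr (11934 of 14535 genes kept), TMM-scaled and tested with edgeR 4.0.16 (glmQLFit with robust shrinkage, prior count 0.125, R 4.3.3). Benjamini-Hochberg adjustment ran over all tested genes at 0.05. SE comes from the F statistic, and intervals are at 95%. The index used a pseudocount of 1 CPM. Exon lengths and locations are from GENCODE M21 (GRCm38, the assembly of mm10). The edgeR code was also tested on simulated data.

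The members, lists and motifs were chosen with earlier results of these data known. Every member could be named, and from each wider list up to 5 called genes with the smallest p. Stard5, Cyp7b1, Hsd3b7 and the cDC2 genes were named after their values were seen. Some genes of the lists are not reported here by name. Alternatives were DESeq2 1.42.0, limma-voom 3.58.1, 2 other scalings, 2 other filters, no robust shrinkage, a replicate block, the macrophage covariate and leaving out each library.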

Additional observations from a re-analysis of the deposited data

How the results depend on the processing

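Under the 8 alternatives other than the macrophage covariate, Srebf2, Soat1, Nr1h3, Abca1 and Scd2 were called each time. With the macrophage index as a covariate 848 genes of the table were called and 0 members higher, 0 lower, 0 synthesis genes lower and 0 efflux genes higher. The replicate block called 2267 genes, 2 members higher (Nr1h3 and Abca1, with Npc2 at an edgeR adjusted p of 0.0634), 3 lower (Srebf2, Soat1 and Scd2) and 0 synthesis genes lower. For equal replicate numbers the correlations of the libraries' deviations from their group means were -0.0061, 0.050 and -0.011. Of the IRF4-deficient libraries replicate 2 alone correlated best with its own number. With 3 libraries per group such values cannot settle whether equal numbers were paired. With limma-voom 0 synthesis genes were called lower, and with a filter of 5 CPM in 3 libraries 1 was called higher. Leaving out 1 library gave 1779 to 2431 genes called, 2 to 4 members higher, 2 to 4 members lower, 0 to 1 synthesis genes lower and 0 to 1 higher, 0 to 1 efflux genes lower and 1 to 2 higher. The synthesis minus efflux difference kept its sign.

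Signs turned only in members that were not called. With the macrophage covariate these were Idi1 (0.035), Fdft1 (0.32), Cyp51 (0.10), Nsdhl (0.16), Srebf1 (-0.78), Npc1 (0.13), Nr1h2 (-0.50), Apoe (-0.62) and Fasn (0.28). Srebf1 was at -0.048 with limma-voom and -0.042 with the replicate block, and Nr1h2 at -0.0040 with upper-quartile factors and -0.0027 with the 5 CPM filter. Leaving out 1 library gave -0.24 to 0.14 for Fdft1, -0.0026 to 0.31 for Msmo1, -0.35 to 0.20 for Srebf1, -0.13 to 0.49 for Stard4, -0.093 to 0.010 for Npc1, -0.15 to 0.16 for Nr1h2, -0.026 to 0.33 for Lpcat3 and -0.12 to 0.33 for Scd1. The causes were not tested. Idi1, Fdps and Mvk did not pass the 5 CPM filter. Depth limits the thinly read members, and for 27 of the 35 the 95% interval of the log2 fold change lay between -1 and 1, beside 8153 of all 11934 tested genes.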
